A study of Homo sapiens with 4 samples.

Results

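The genes described here run the switch from G1 into S phase: the D-type cyclins CCND1, CCND2 and CCND3, their kinases CDK4 and CDK6, the E-type cyclins CCNE1 and CCNE2, the pocket protein gene RB1, the transcription factor gene E2F1, and CDKN1B, which encodes the CDK inhibitor p27. They were chosen by name, as the genes whose symbol a probe set of the array carries alone. All 10 were found among the 18417 genes that could be named in this way, each with 1 probe set. Gene expression had been measured in human prostate cancer cells with Affymetrix whole-transcript arrays. SiPSF LTAD were LTAD cells transfected with an siRNA against PSF, the RNA-binding protein encoded by SFPQ, siControl LTAD were LTAD cells given the control siRNA, and untransfected LTAD were left without siRNA. LTAD is a subline of LNCaP obtained by prolonged withdrawal of androgen, and all 3 kinds of LTAD cells grew in hormone-depleted medium containing 10% stripped serum. The last group was LNCaP, the androgen-responsive parent line, which had been moved from full serum for 24 h to hormone-depleted medium with 2.5% stripped serum. Each of the 4 groups had 1 array, so no value below has an error, no difference has a test, and differences of line, serum and culture cannot be told apart. No source used here gives the siRNA sequence, its dose or the time after transfection.

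In G1, growth signals induce D-type cyclins, which activate CDK4 and CDK6 to phosphorylate the RB protein. Phosphorylated RB releases E2F factors, and these switch on the genes of cyclin E and of DNA synthesis as well as the gene of E2F1 itself. Cyclin E with CDK2 completes the phosphorylation of RB, and p27 holds this kinase back. In prostate cancer cells androgen signalling is known to feed into this switch through D-type cyclins and RB.

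The deposited log2 levels of the 4 arrays were not on one scale. Their medians over all 33297 probe sets were 6.04 in siPSF LTAD, 5.98 in siControl LTAD, 7.20 in untransfected LTAD and 6.91 in LNCaP. Levels and differences are therefore given after quantile normalization, which gives every array the same distribution of values. The deposited scale is named beside many of them where it differs. A gene was kept if it reached 7.23, the median of all gene values, on at least 1 array. This left 10117 genes, and 8 of the 10 G1/S genes. CCND2 and CDK6 were under that value on all 4 arrays. No detection call was used, so such readings are not shown to be above background.

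Before the results it has to be said that the siControl and the untransfected LTAD arrays stood far apart for cells of one line. They differed at least 2-fold in 1082 of the kept genes (10.7%), of which 59.2% were higher in siControl LTAD, or 1.34% on the deposited scale with its own filter. KLK3, the androgen-induced gene of prostate-specific antigen, read 7.11 in siPSF LTAD, 7.47 in siControl LTAD, 11.06 in untransfected LTAD and 12.89 in LNCaP. Of 10 luminal prostate markers 6 could be analysed, all 6 were kept, and their mean log2 level was 10.81 in siPSF LTAD, 10.85 in siControl LTAD, 11.51 in untransfected LTAD and 11.73 in LNCaP. KLK3 is part of this mean, and the other kept luminal markers did not share its order. KRT8 and KRT18 were highest in untransfected LTAD, at 12.49 and 12.09, and EPCAM was lowest there, at 10.59. HOXB13 lay between 10.70 and 10.93. CDH1, the gene of E-cadherin, lay between 11.99 and 12.06 on all arrays. Of 12 fibroblast, endothelial and immune markers 9 were under the filter everywhere. LUM, a matrix gene of fibroblasts, read 2.97 in siPSF LTAD, 3.21 in siControl LTAD, 8.80 in untransfected LTAD and 3.78 in LNCaP. The mean log2 level of these 12 markers, LUM included, was 5.46, 5.43, 5.85 and 5.36 on the same arrays in that order. The other kept markers of this list did not follow LUM. COL1A1 lay between 7.68 and 7.99, and CD68 was highest in LNCaP, at 8.70 against 8.11 in untransfected LTAD. The part of either marker list in the results was not tested. SFPQ, the siRNA target, read 9.87 in siPSF LTAD against 11.23 in siControl LTAD, a 2.58-fold lower level, and 0.128% of kept genes differed by as much in either direction.

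**Figure D1:**
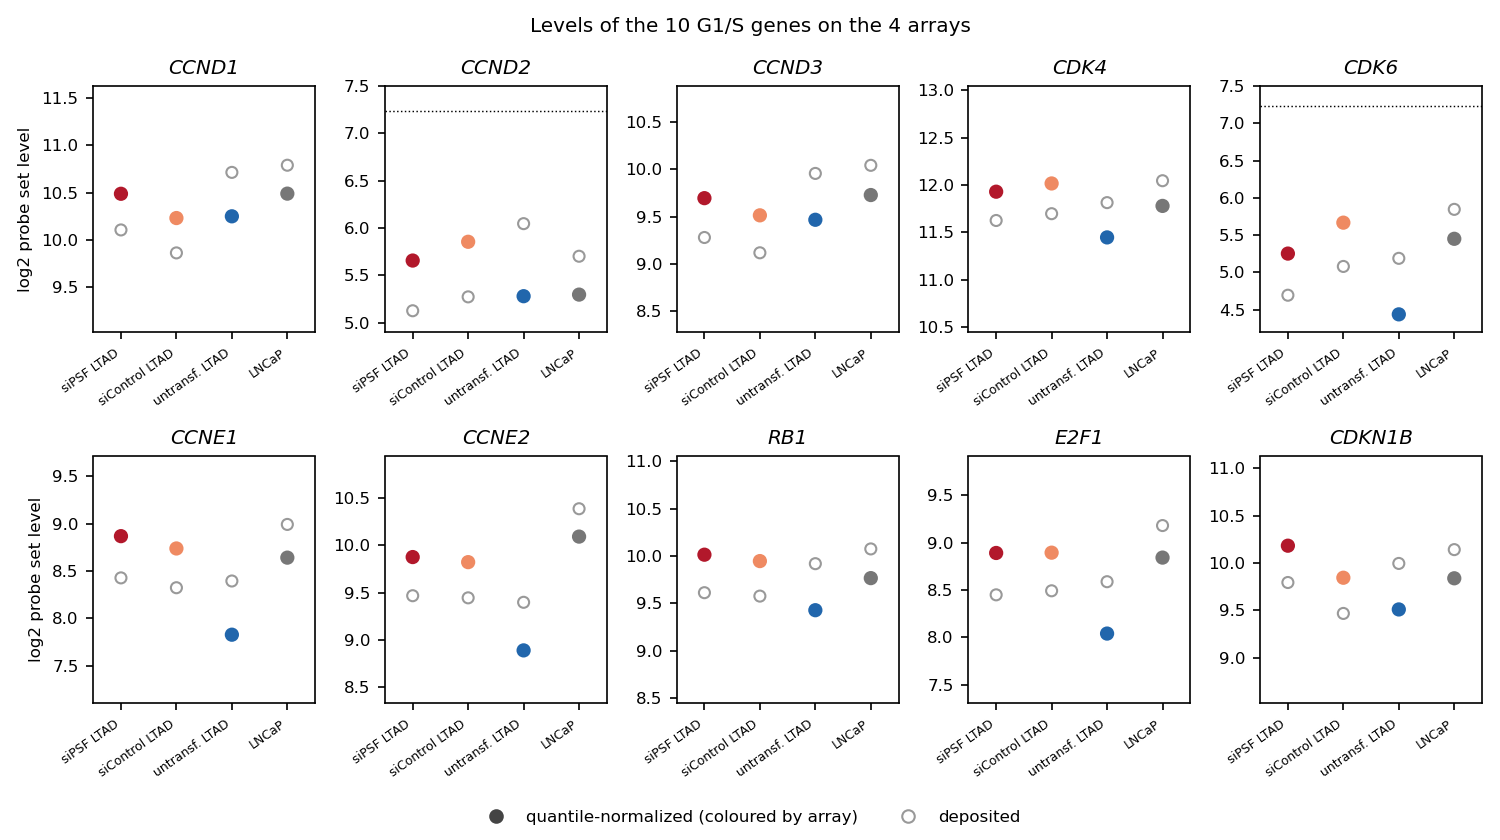
Log2 probe set level (y axis) of each of the 10 G1/S genes on the 4 arrays (x axis), 1 array per point. Filled points are quantile-normalized and coloured by array, open points are deposited values, and the dotted line at 7.23 in the CCND2 and CDK6 panels is the filter value. CCNE1, CCNE2 and E2F1 were lowest in untransfected LTAD on the quantile-normalized scale, where CCNE2 read 8.89 and the other arrays 9.82 to 10.09, but of these 3 genes only CCNE2 was lowest there on the deposited scale.

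The D-type cyclins CCND1 and CCND3 had narrow ranges over the 4 arrays after quantile normalization, but not on the deposited scale. The quantile-normalized log2 level of CCND1 was 10.49 in siPSF LTAD, 10.23 in siControl LTAD, 10.25 in untransfected LTAD and 10.49 in LNCaP. CCND3 read 9.70, 9.51, 9.47 and 9.73 on these arrays in the same order. For both genes siPSF LTAD and LNCaP were the upper pair of arrays, whereas on the deposited scale untransfected LTAD and LNCaP were. The whole range was 0.26 for CCND1 and 0.26 for CCND3, and 86.6% and 86.2% of the kept genes ranged at least as widely. Deposited ranges were 0.93 and 0.92. CCND2, the third D-type cyclin, read from 5.28 to 5.85, under the filter value throughout.

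CDK4, the partner kinase of the D-type cyclins, read 11.93 in siPSF LTAD, 12.02 in siControl LTAD, 11.45 in untransfected LTAD and 11.78 in LNCaP. Untransfected LTAD was the lowest and both transfected arrays the highest, over a range of 0.57, whereas both transfected arrays were the lowest on the deposited scale (11.63 and 11.70, with untransfected LTAD at 11.81 and LNCaP at 12.05). CDK6, the related kinase, read 5.25 in siPSF LTAD, 5.67 in siControl LTAD, 4.44 in untransfected LTAD and 5.45 in LNCaP. The deposited CDK6 levels were 4.69, 5.08, 5.19 and 5.85 in the same order, lowest in siPSF LTAD. After quantile normalization CDK6 had the widest range of the 10 genes, 1.23, but at readings not shown to be above background.

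After quantile normalization the E-type cyclins had wider ranges than CCND1 and CCND3, but the deposited ranges, 0.67 for CCNE1 and 0.99 for CCNE2, do not keep that order for CCNE1. CCNE1 read 8.87 in siPSF LTAD, 8.74 in siControl LTAD, 7.83 in untransfected LTAD and 8.64 in LNCaP. CCNE2, which encodes the second cyclin E, read 9.88, 9.82, 8.89 and 10.09 in the same order. In both genes untransfected LTAD was lowest on this scale, while the other arrays lay between 8.64 and 8.87 for CCNE1 and between 9.82 and 10.09 for CCNE2. On the deposited scale LNCaP stood apart at the high end, at 8.99 for CCNE1 and 10.39 for CCNE2, with the 3 LTAD arrays between 8.32 and 8.43 and between 9.40 and 9.47. These ranges, 1.04 and 1.20, were reached by 15.7% and 11.7% of the kept genes.

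E2F1 was likewise lowest in untransfected LTAD after quantile normalization, at a smaller range of 0.85, with 8.89 in siPSF LTAD, 8.90 in siControl LTAD, 8.04 in untransfected LTAD and 8.84 in LNCaP. Its deposited levels were 8.45, 8.49, 8.59 and 9.18 in the same order, highest in LNCaP. RB1, whose protein restrains E2F factors, read 10.01 in siPSF LTAD, 9.95 in siControl LTAD, 9.43 in untransfected LTAD and 9.77 in LNCaP. The deposited RB1 levels were lowest in siControl LTAD (9.58) and highest in LNCaP (10.08), with untransfected LTAD at 9.92. CDKN1B read 10.18, 9.84, 9.51 and 9.84 on the same arrays, highest with siPSF and lowest in untransfected LTAD, whereas its deposited levels were highest in LNCaP (10.14) and lowest in siControl LTAD (9.47). With 1 array per group it is not known which neighbours in these orders differ beyond the spread of repeated arrays.

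E2F1 is itself a gene that E2F factors bind, so the start-site sequences of RefSeq (GRCh38.p14) were searched for the E2F consensus. The windows ran from 250 bases before to 50 after each start, and the words searched on both strands were TTTCCCGC, TTTCCCGG, TTTCGCGC, TTTCGCGG, TTTGCCGC, TTTGCCGG, TTTGGCGC and TTTGGCGG, some of which overlap. Windows were found for 7 of the 10 G1/S genes, and E2F1 was the 1 gene with a match. CCND1, CCND2 and CCNE2 had no window and were not searched. Of the 22 G1/S target genes of E2F listed for comparison, 19 had a window and 12 of these (63.2%) had a match, against 2030 of all 27305 genes with a window (7.43%). These genes were listed because they are E2F targets, so the higher share is no independent result. Stretches of the 100 bases before the start are shown to let the matches be seen, in capitals: E2F1 (chr20:33686386-33686485, minus strand), the pocket protein gene RBL1 (chr20:37095998-37096097, minus strand), the replication gene CDC6 (chr17:40287779-40287878, plus strand), and CCNE1 (chr19:29811891-29811990, plus strand), which had no match in its window.
E2F1: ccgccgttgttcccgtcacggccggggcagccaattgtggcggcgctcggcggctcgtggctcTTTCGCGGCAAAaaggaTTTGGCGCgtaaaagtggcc
RBL1: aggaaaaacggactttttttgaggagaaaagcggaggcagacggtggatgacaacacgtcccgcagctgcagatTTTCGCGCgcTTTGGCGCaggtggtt
CDC6: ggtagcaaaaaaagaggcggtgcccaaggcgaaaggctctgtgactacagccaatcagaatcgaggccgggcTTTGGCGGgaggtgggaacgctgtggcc
CCNE1: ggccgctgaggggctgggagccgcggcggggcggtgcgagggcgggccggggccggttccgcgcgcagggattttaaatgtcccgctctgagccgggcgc
In E2F1 a match on each strand overlaps at the first capital run, and a further match lies 20 bases before the start. A match describes letters only, and no match says nothing of E2F at that gene.

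The comparison of siPSF LTAD with siControl LTAD asked what loss of PSF does to these genes. None of the 8 kept G1/S genes was at least 2-fold higher or lower, where 0.089% of all kept genes were at least 2-fold higher and 0.722% lower. None reached 1.5-fold either, a size that 0.771% of kept genes reached upwards and 3.26% downwards. The largest difference was that of CDKN1B, 10.18 in siPSF LTAD against 9.84 in siControl LTAD (log2 difference 0.34, 1.26-fold). At least as large a difference in either direction was read in 15.3% of kept genes. CCND1 was next at 0.26 (1.19-fold), then CCND3 at 0.18, CCNE1 at 0.13, RB1 at 0.07 and CCNE2 at 0.05. E2F1 differed by -0.003 and CDK4 by -0.09. CCNE2 and RB1 had the opposite sign (-0.04 and -0.02) when each column was centred on its median. With that centring the median of all kept genes was itself -0.09, and both genes stayed above it. After quantile normalization the median over the 8 genes was 0.10, against -0.02 over all kept genes.

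Other genes of the pathway were taken from 8 lists holding 79 entries, of which 77 could be analysed. None of their kept members was 2-fold apart between siPSF LTAD and siControl LTAD. CDKN1A, which encodes the CDK inhibitor p21, read 9.55 in siPSF LTAD against 8.72 in siControl LTAD. That is 1.78-fold higher, and 0.198% of kept genes were higher by as much. It was the 1 kept CDK inhibitor of 5 past 1.5-fold, and in untransfected LTAD it read 9.66, above the siPSF array. Against untransfected LTAD, CDKN1A differed by -0.10 with siPSF, or by 0.15 with each column centred on its median.

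The E2F target genes, which encode enzymes and loading factors of DNA synthesis, had 20 of 21 kept members below 0 with siPSF, and 21 of 21 on the deposited scale. Of all 10117 kept genes, 5373 were below 0, or 5645 on the deposited scale. The median of the E2F target genes was -0.21, and 2 of them were at least 1.5-fold lower, UNG at -0.61 and CDC6 at -0.60. CDK2, the partner of cyclin E, differed by -0.06, the pocket protein genes RBL1 and RBL2 by -0.30 and 0.19, and MYC, which drives cell growth, by -0.29. E2F8, a repressor of the E2F family, differed by -0.75, and MNAT1, the assembly factor of the CDK-activating kinase, read 8.27 in siPSF LTAD against 9.14 in siControl LTAD (1.83-fold lower). E2F1 itself thus differed by less than most of the target genes on the list. E2F8, UNG and MNAT1 were singled out after their values were seen. Of 7 proliferation markers 6 were below 0, with a median of -0.23. In bulk RNA of this kind, fewer cells in a phase of the cycle and less RNA per cell cannot be told apart.

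**Figure D2:**
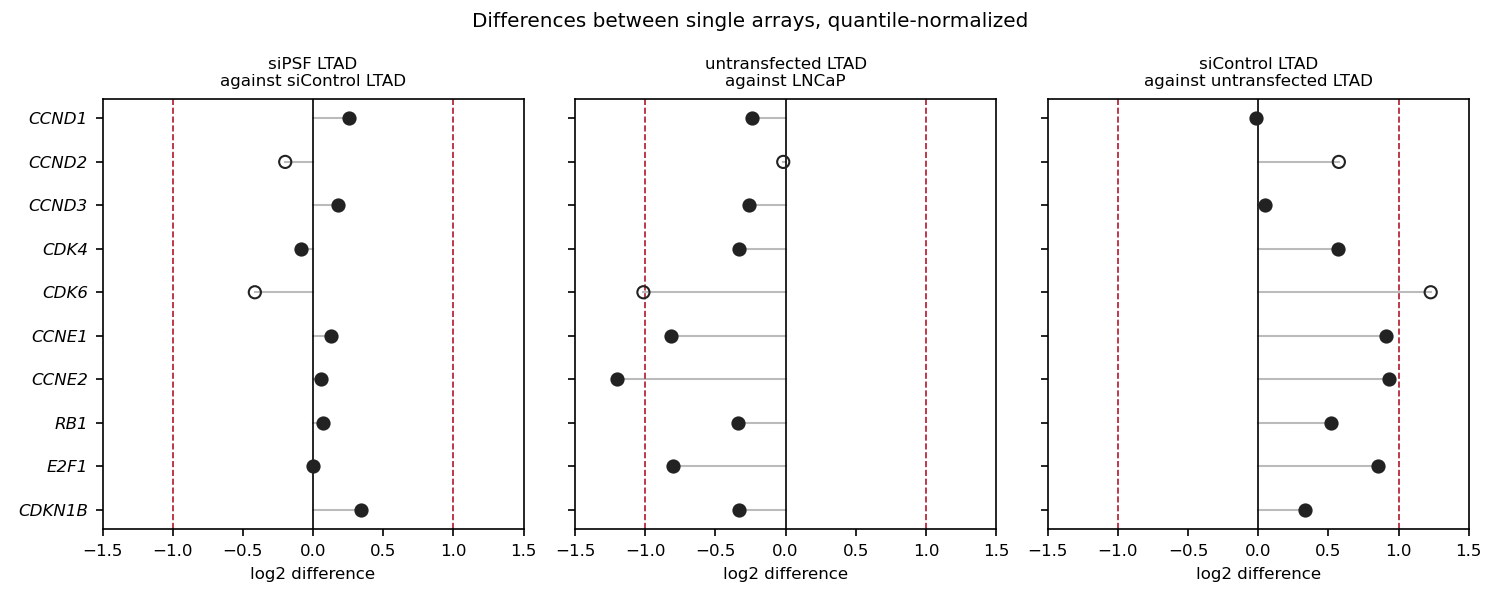
Log2 difference (x axis, quantile-normalized) of each G1/S gene (y axis) in the 3 comparisons, each between 2 single arrays. Open points are genes under the filter on all arrays, and dashed lines mark 2-fold. All 8 kept genes lay within 0.34 of 0 for siPSF LTAD against siControl LTAD, and CCNE2 was past 2-fold for untransfected LTAD against LNCaP at -1.20. In the right panel the signs of CCND3, CDK4, CCNE1, RB1, E2F1 and CDKN1B turn on the deposited scale.

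Set against untransfected LTAD in place of siControl LTAD, siPSF LTAD read higher in all 8 kept genes, as it did in 5458 of all 10117 kept genes. CCNE1 was past 2-fold (1.04, 2.06-fold), where 5.4% of kept genes were at least 2-fold higher and 5.2% lower, and CCNE2 was just under it at 0.99. E2F1 differed by 0.85, CDKN1B by 0.67, RB1 by 0.59, CDK4 by 0.48, CCND1 by 0.24 and CCND3 by 0.23. On the deposited values the signs flipped for 6 of these 8 genes, with CCNE1 and CCNE2 still above 0 at 0.03 and 0.07. On those values 9531 of all 10117 kept genes were below 0, with a median of -0.90. Relative to the median of kept genes, all 8 genes were higher in siPSF LTAD on both scales. The siPSF array is common to this and to the previous comparison. Against the same untransfected array, siControl LTAD also read higher in 7 of the 8 genes, or in 1 on the deposited scale. After quantile normalization its differences were 0.91 for CCNE1, 0.93 for CCNE2 and 0.85 for E2F1.

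Untransfected LTAD was next set against LNCaP, to see what separates the subline kept without androgen and the line it came from. All 8 kept G1/S genes read lower in untransfected LTAD, on the quantile-normalized and on the deposited scale. So did 5008 of all 10117 kept genes, or 2969 on the deposited scale. CCNE2 was 2.30-fold lower, at 8.89 in untransfected LTAD against 10.09 in LNCaP, and CCNE1 1.76-fold lower, at 7.83 against 8.64. E2F1 was 1.74-fold lower, at 8.04 against 8.84. The 5 others were closer, with CCND1 at -0.24, CCND3 at -0.26, CDK4 at -0.33, CDKN1B at -0.33 and RB1 at -0.34. CDK6 differed by -1.01 between readings under the filter value.

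One of the 8 genes, CCNE2, was thus at least 2-fold lower and none higher, where 3.43% of all kept genes were lower and 2.2% higher by that much. At 1.5-fold, 3 of 8 were lower (CCNE1, CCNE2 and E2F1) and none higher, beside 9.05% and 6.63% of all kept genes. On the deposited scale CCNE2 came to -0.99, just under 2-fold. The median of the 8 genes was -0.34, against 0.004 for all kept genes. Of all genes 2-fold apart here, 39.1% were higher in untransfected LTAD, or 58.2% on the deposited scale with its own filter. The difference of CCNE2 minus that of CCND1 was -0.96, and that of E2F1 minus CCND1 was -0.56, which became -0.91 and -0.52 on the deposited values.

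The E2F target genes had 21 of 21 kept members below 0 and 14 at least 2-fold lower, with a median of -1.09 (20 of 21, 9 and -0.85 on the deposited scale). Below 0 were also 5008 of all 10117 kept genes, or 2969 on the deposited scale. CDC6, which loads the replicative helicase, read 7.22 in untransfected LTAD against 9.17 in LNCaP, and CDC45, a part of that helicase, 7.26 against 8.99. The untransfected reading was under the filter value for 3 of the 14 genes, CDC6 among them. The repressor genes E2F8 and E2F7, also known targets of E2F, differed by -2.08 and -1.58, with readings in untransfected LTAD under the filter value. RBL1 differed by -0.98 and RBL2, the pocket protein of resting cells, by -0.01, or 0.16 on the deposited scale. Among other kinase partners and activators, CCNA2, the S-phase cyclin A, was 2.32-fold lower, CDC25A, the phosphatase that activates CDK2, differed by -1.43 with a reading of 6.35 in untransfected LTAD, and CDK2 by -0.69. MYBL2, a transcription factor that works with MuvB, was 3.15-fold lower and LIN9, a MuvB subunit, differed by -1.14.

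The listed CDK inhibitors had the opposite sign. All 5 kept genes were above 0 on both scales, as were 5105 of all 10117 kept genes, or 7148 on the deposited scale. The median of the 5 was 0.36, and all 5 stood above the median of kept genes on both scales. CDKN1A read 9.66 in untransfected LTAD against 8.81 in LNCaP (log2 difference 0.85). CDKN1B, the inhibitor among the 8 G1/S genes, did not share that sign. Ubiquitin ligases of cyclins and p27 had a median of 0.08, and SKP2, the subunit that marks p27 for destruction, differed by -0.77. Of the upstream regulators, SMAD3, a mediator of TGF-beta signals, was 2.01-fold higher and MYC differed by -0.44. Proliferation markers were lower in 7 of 7 genes, and their mean log2 level was 8.50 in untransfected LTAD against 9.68 in LNCaP, with BUB1 and TOP2A each 2.84-fold lower.

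After quantile normalization the differences of CCNE1, CCNE2 and E2F1 from LNCaP depended on whether the untransfected or the siControl LTAD array was used. Those of CCND1 and CCND3 hardly did. With siControl LTAD in its place against LNCaP, none of the 8 kept G1/S genes was 2-fold higher or lower, beside 2.68% and 2.95% of all kept genes. CCNE2 then differed by -0.27, CCNE1 by 0.10 and E2F1 by 0.05, the last 2 turning to -0.67 and -0.69 on the deposited scale. The E2F target genes had a median of -0.02 with 12 of 21 below 0, or 21 of 21 on the deposited scale. On that scale 9523 of all 10117 kept genes were below 0, with a median of -0.69. Relative to the median of kept genes, the median of the E2F target genes stood at -0.08, or -0.07 on the deposited scale. After quantile normalization 1 of the 21 was still at least 2-fold lower and none higher, and CDK2 differed by -0.55. CCND1 and CCND3 differed from LNCaP by -0.26 and -0.21, beside -0.24 and -0.26 for untransfected LTAD with the same LNCaP array. On the deposited scale these were -0.93 and -0.92, beside -0.08 and -0.09.

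**Figure D3:**
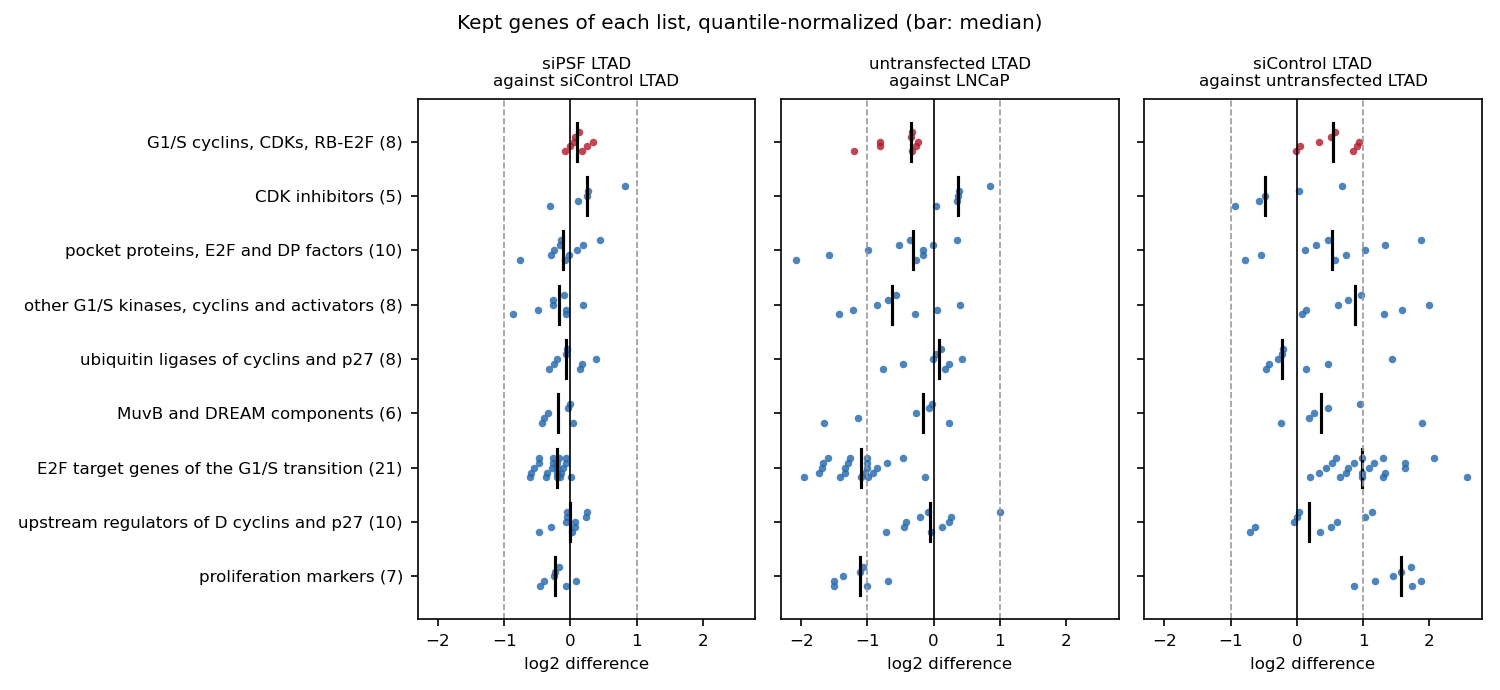
Log2 difference (x axis, quantile-normalized) of the kept genes of the G1/S group and of 8 lists of other pathway genes (y axis, number kept in brackets) in the 3 comparisons. Each point is 1 gene, the bar is the median and dashed lines mark 2-fold. The E2F target genes had medians of -0.21, -1.09 and 0.99 from left to right, and the 8 G1/S genes 0.10, -0.34 and 0.54, the last of which turns to -0.23 on the deposited scale.

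The siControl and untransfected arrays show how far 2 arrays of LTAD cells lay apart in these genes. CCNE1, CCNE2 and E2F1 were 1.88-fold, 1.91-fold and 1.81-fold higher in siControl LTAD after quantile normalization, CDK4 1.48-fold and RB1 1.43-fold, whereas on the deposited scale CCNE1, E2F1, CDK4 and RB1 had the opposite sign (-0.07, -0.10, -0.12 and -0.34) and CCNE2 stood at 0.05. CDKN1B differed by 0.33, or -0.53 on the deposited scale, and CCND3 by 0.05, or -0.84. None of the 8 genes was 2-fold higher or lower, beside 6.34% and 4.36% of all kept genes. At 1.5-fold 3 of 8 were higher and none lower, beside 16.7% and 11.7% of all kept genes.

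All kept genes together had a median of -0.87 on the deposited scale here, against 0.06 after quantile normalization. Taken relative to that median, both scales gave nearly the same picture. CCNE2 stood 0.87 above the median of kept genes and 0.92 on the deposited scale, CCNE1 0.85 and 0.80, E2F1 0.79 and 0.78, CDK4 0.51 and 0.76, RB1 0.45 and 0.53, and CDKN1B 0.27 and 0.35. CCND1 and CCND3 stayed near the median, at -0.08 and -0.02 and, on the deposited scale, 0.02 and 0.03. The difference of CCNE2 was thus 0.95 above that of CCND1 between the same 2 arrays, and 0.90 above it on the deposited values.

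**Figure D4:**
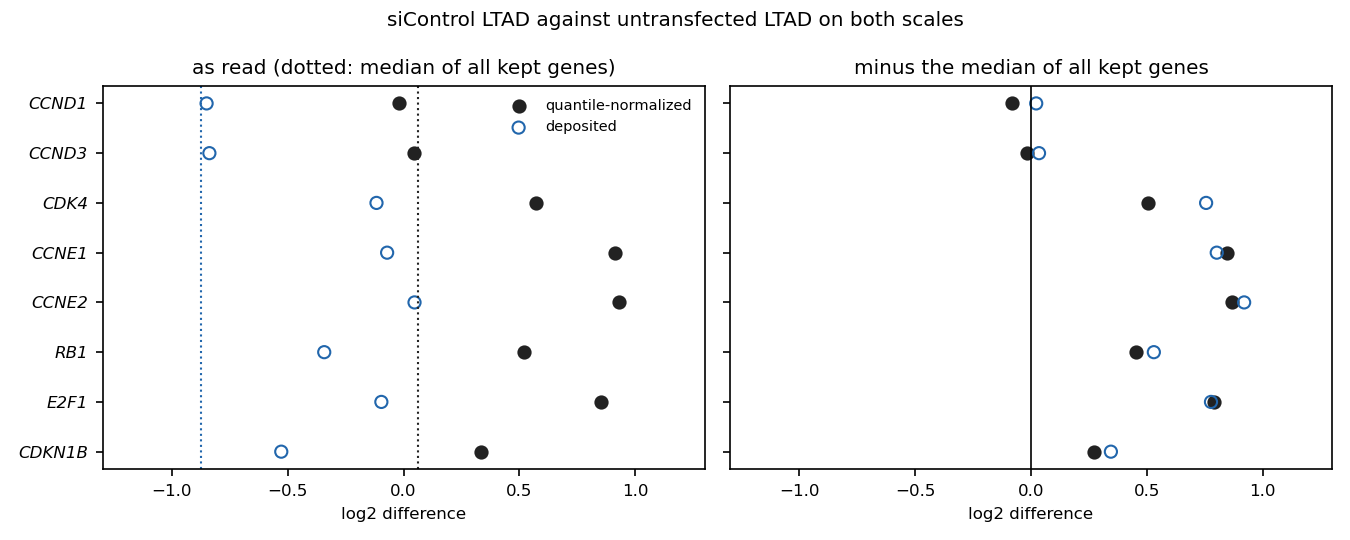
Log2 difference between siControl LTAD and untransfected LTAD (x axis) of the 8 kept G1/S genes (y axis), on the quantile-normalized (filled) and deposited (open) scale. The left panel shows the differences as read, with a dotted line at the median of all kept genes on each scale (0.06 and -0.87), and the right panel the same differences minus that median. In the right panel CCNE1, CCNE2 and E2F1 stand at 0.78 to 0.92 on both scales and CCND1 and CCND3 between -0.08 and 0.03.

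The E2F target genes had 21 of 21 kept members above 0 and 9 at least 2-fold higher in siControl LTAD (2 on the deposited scale; median 0.99, or 0.03 on the deposited scale with 12 of 21 above 0). Relative to the median of kept genes all 21 were higher on both scales, with list medians of 0.92 and 0.91. CDC45 was 4.19-fold higher, and CDC6 read 9.79 against 7.22. CKS2, a subunit that CDKs bind, was 3.99-fold higher, MYBL2 3.73-fold, SKP2 2.71-fold and MYC 2.19-fold. E2F8 differed by 1.88, CDC25A by 1.59, E2F7 by 1.33 and FOXO4, an inducer of p27, by 1.03, each against an untransfected reading under the filter value. RBL1 differed by 1.03, RBL2 by -0.78 and CDK2 by 0.14. Among the genes named in this paragraph, FOXO4 and CDK2 had the opposite sign on the deposited scale, at -0.08 and -0.74. CDKN1A was 1.91-fold lower in siControl LTAD, and 3 of the 5 kept CDK inhibitors were below 0, or 5 of 5 on the deposited scale. On that scale 9405 of all 10117 kept genes were below 0. Relative to the median of kept genes, 1 of the 5 inhibitors was higher on each scale. Proliferation markers were higher in 7 of 7 genes on both scales, among them BUB1 (3.65-fold) and PLK1 (3.34-fold).

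Some kept genes outside the G1/S group had nearly the same profile. Over the 4 quantile-normalized arrays, 81 kept genes lay within 0.1 of E2F1 in root mean square distance, after each profile was centred on its own mean. The closest were GLA (0.02), RPUSD2 (0.02), SLC35F5 (0.02), ANP32B (0.03) and GMNN (0.03), the last encoding geminin, an inhibitor of replication licensing. For CCNE2, the kept G1/S gene with the widest range, 14 genes lay within 0.1, led by ZNF85 (0.03), PRIM1 (0.04), SAMHD1 (0.06), PGD (0.06) and GJC1 (0.07). PRIM1 encodes a subunit of DNA primase and SAMHD1 an enzyme that breaks down the building blocks of DNA. With 4 points per profile, this likeness describes these arrays only.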

How the data were processed

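Per the submitters' processing notes, the authors made the deposited log2 probe set levels with RMA in Affymetrix Expression Console. Their versions and settings, and whether the arrays were normalized jointly, are not given in the sources used here. Of 33297 probe sets, 19460 carried 1 gene symbol, 1754 several and 12083 were unnamed here. Symbols came from the platform annotation and were updated through Entrez IDs to RefSeq (GRCh38.p14), which matched 19429. Where a gene had more than 1 probe set (769 genes), that of highest mean level stood for it. The 4 columns were quantile-normalized over all probe sets (Python 3.11.15, numpy 2.4.6, pandas 2.3.3). Genes that reached the 50th percentile of all gene values on at least 1 array were kept. Each difference is between 2 single arrays, counted at 2-fold and 1.5-fold, with no test. Precision is limited by having 4 arrays. Folds are given only where both arrays reached the filter value. The calls were tested on simulated data, with planted differences well clear of the 2-fold line and little noise. That checks the code and says nothing of the spread between repeated arrays.

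The members and lists were chosen with earlier results of these data known. Named are the 10 members, SFPQ, CDKN1A, CDK2, RBL1, RBL2 and MYC, up to 2 genes per list and direction at 2-fold or more, and the 5 closest profiles of E2F1 and of CCNE2, the second standing in for CDK6, which had the widest range but was under the filter. UNG, MNAT1, LUM, COL1A1, CD68, KLK3, KRT8, KRT18, EPCAM, HOXB13, CDH1, E2F8 with siPSF and SKP2 against LNCaP were picked after their values were seen. Alternatives were the deposited scale, median centring, no filter, a 75th percentile filter, the mean of probe sets, the 1.5-fold threshold and another array as the control. Some genes are not analysed here.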

Additional observations from a re-analysis of the deposited data

How the results depend on the processing

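Single arrays limit every value, and the yardstick for a move was the median absolute difference of kept genes. Of 170 recomputed differences of single G1/S genes, 138 moved by less than that, 32 by more (12 of them on the deposited values, 16 with another array as control), and 24 changed sign. Each G1/S gene had 1 probe set, so neither a changed filter nor the mean of probe sets could move its difference. These settings only add to the 138, and all moves and sign changes came from the other settings. The differences past 2-fold that changed sign were those of CDK6, under the filter value: -1.01 for untransfected LTAD against LNCaP became 0.22 with the siControl array standing in, and 1.23 for siControl LTAD against untransfected LTAD became -0.11 on the deposited values. For untransfected LTAD against LNCaP, the count at least 2-fold lower came to 0 on the deposited values, 2 with no filter, 3 at 1.5-fold and 0 when the siControl array stood in for the untransfected one, where the median turned to 0.0289 (-0.34 as reported). For siControl LTAD against untransfected LTAD, the count at least 2-fold higher came to 4 with each column centred on its median, 1 with no filter and 3 at 1.5-fold. The median there was 0.99 with centring and turned to -0.23 on the deposited values, whose median over all kept genes was -0.87. With untransfected LTAD as the control array, siPSF LTAD had 1 gene at least 2-fold higher and a median of 0.63. The extra gene without the filter was CDK6. Over all kept genes the deposited scale with its own filter gave 65 higher and 4791 lower for siControl LTAD against untransfected LTAD (641 and 441 as reported), and 355 and 255 for untransfected LTAD against LNCaP (223 and 347). For the rest of these shifts the cause was not tested. No paired analysis was possible because each group held 1 array.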
